A study of Mus musculus with 6 samples.

Results

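The genes that encode collagen chains were taken from the dental pulp libraries by their symbols, Col followed by a number, the letter a and a second number. The count table listed 44 such genes of 27506 in all. They comprised 11 fibrillar chains, 9 network-forming chains, 9 chains of the fibril-associated collagens with interrupted triple helices (FACIT) and 15 chains of other kinds. The tissue was pulp dissected from mandibular first molars of C57BL/6 mice at postnatal day 3.5, and 3 Ror2fl/fl control libraries and 3 Osr2-Cre;Ror2fl/fl libraries, called mutant here, were compared. All mice carried floxed alleles of Ror2, a receptor of non-canonical Wnt signaling, and in the mutant mice Cre expressed from Osr2 deleted it in the dental mesenchyme. By lineage tracing in the study, Osr2-Cre was also active in alveolar bone and not in dental epithelium. Control library 1 differs from the other controls in the letter code of its label, which no source used here explains.

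Collagens are trimers of chains wound into a triple helix, and most are secreted. Fibrillar collagens make up the fibers of dentin, bone, pulp and ligament, FACIT collagens sit on the surface of those fibers, network collagens form basement membranes and sheets, and the remaining kinds include microfilaments, anchoring fibrils and proteins of the cell membrane. In a developing molar the odontoblasts that line the pulp secrete a dentin matrix built largely of type I collagen, while the dental follicle around the tooth gives rise to a ligament rich in fibrillar and FACIT collagens.

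The libraries held 56134770 to 62628940 estimated counts each. Of all genes, 19330 had enough counts to enter edgeR's quasi-likelihood test, with p-values adjusted by the Benjamini-Hochberg method. The targeted gene Ror2 had 38.2, 36.2 and 36.7 CPM (a count relative to the scaled size of its library) in controls and 27.9, 28.1 and 26.3 CPM in mutants, with a log2 fold change of -0.43 (standard error, SE, 0.08, adjusted p = 0.013, edgeR). The call was lost without control library 2 (adjusted p = 0.066, edgeR) or 3 (adjusted p = 0.075, edgeR). The odontoblast markers Dspp, Dmp1, Phex and Nes were present in every library. Although the label reads dental pulp, Amelx, Ambn and Enam, which encode the enamel matrix secreted by ameloblasts, held 17.3% to 18.9% of all counts in the control libraries and 18.6% to 23.7% in the mutant libraries. In such bulk tissue, fewer cells of a type and less RNA per cell cannot be told apart. Of the other marker lists, 2 of 5 erythroid genes fell, with a summed level of 782 to 1318 CPM in the control and 243 to 932 CPM in the mutant libraries. Of 5 leukocyte genes 1 fell, with sums of 94.6 to 106 CPM and 88.2 to 108 CPM. It was Cx3cr1, with a log2 fold change of -0.44. Ptprc and Csf1r missed the threshold with -0.16 and -0.21, and Cd68 and Lyz2 with 0.41 and 0.47. Of all genes tested, 9.84% were called lower.

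Of the 44 collagen chain genes, 43 passed the filter, and 13 of these, or 30.2%, had an adjusted p under 0.05, beside 20.2% of all genes tested. In the mutant libraries 12 chains, or 27.9%, were lower, where 9.84% of all genes were. A single chain, Col27a1, was higher, where 10.4% of all genes were. The log2 fold change of the 43 chains had a median of -0.51 and ran from -1.95 to 0.82, and it was negative for 32 chains and positive for 11. For all genes tested the median was 0.01. The median of the chains was -0.33 without mutant library 2 and stayed between -0.67 and -0.39 when any other library was left out. The libraries of the groups did not overlap for 18 chains that were lower in mutants, or 41.9%, beside 22.1% of all genes, and for 3 that were higher, or 6.98%, beside 22.6% of all genes. Without adjustment, 24 of the 43 chains, or 55.8%, had a p under 0.05, beside 38.3% of all genes tested. The lower count fell to 4 without control library 2 and to 4 without control library 3, where 432 and 414 of all genes were lower. The same 4 chains, Col4a5, Col4a6, Col9a1 and Col12a1, had an adjusted p under 0.05 under each of the 18 alternatives tried. The single higher call was lost when any one control library was left out, and 2 chains were called higher without mutant library 3.

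**Figure D1:**
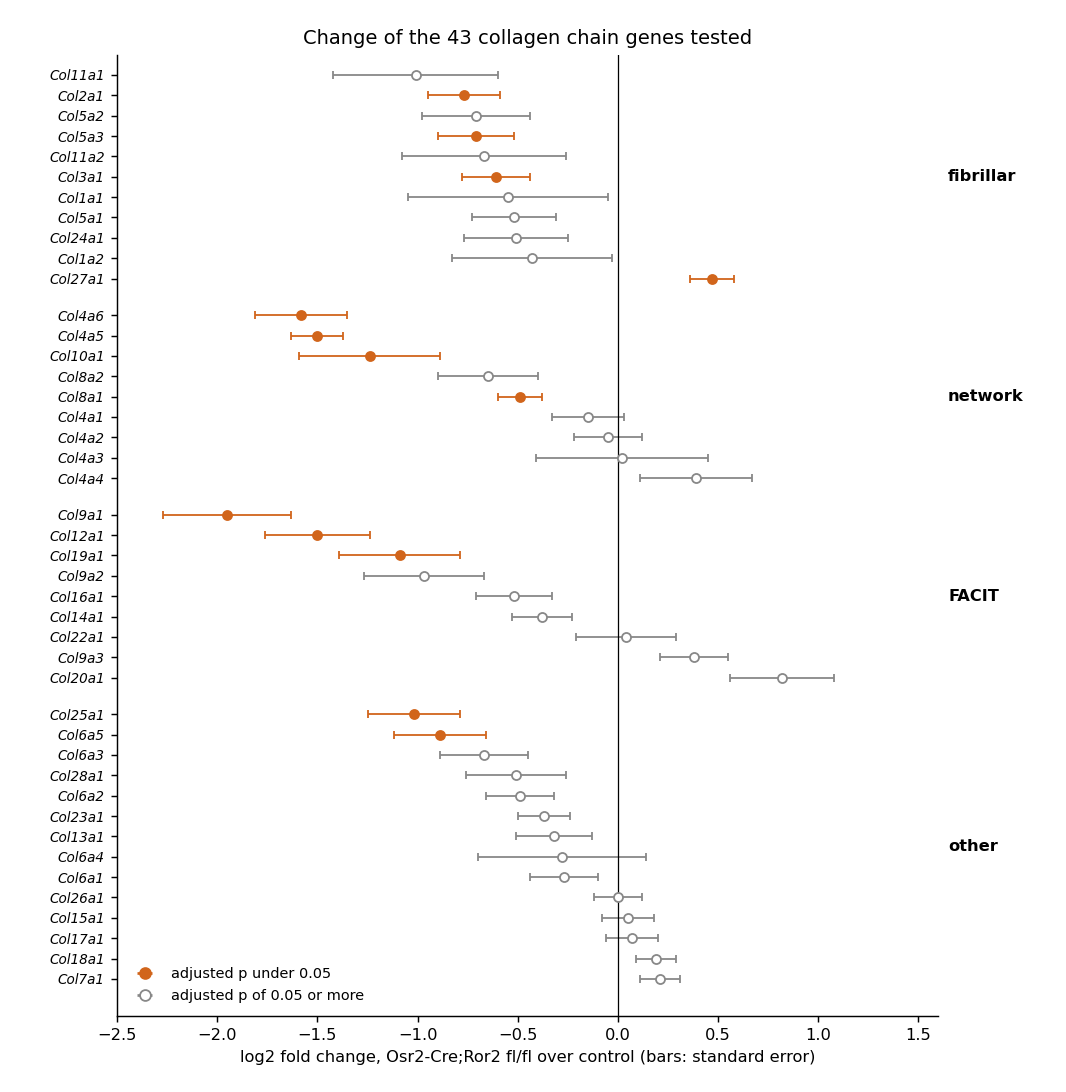
Log2 fold change (mutant over control, x axis) of the 43 collagen chain genes tested, by class, with the standard error as bars. Filled points mark the 13 chains with an adjusted p under 0.05 (edgeR), of which 12 lie to the left of 0 and Col27a1 to the right.

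By class, 4 of 9 network chains, 3 of 9 FACIT chains, 3 of 11 fibrillar chains and 2 of the 14 other chains tested fell. These are shares of 44.4%, 33.3%, 27.3% and 14.3%, beside the 9.84% of all genes that were lower, and the share of the other chains lay nearest to it. The median log2 fold change was -0.49 for network, -0.52 for FACIT, -0.61 for fibrillar and -0.30 for other chains. The classes were not tested against each other.

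Levels were set side by side per length, as CPM per kilobase of the gene's exons, averaged over the 3 control libraries. They spanned from 0.0231 CPM per kilobase for Col4a3 to 3798 CPM per kilobase for Col1a1. The chains of type I collagen, Col1a1 and Col1a2 (806 CPM per kilobase), stood far above Col3a1 (115 CPM per kilobase) and Col11a2 (114 CPM per kilobase), whose levels did not differ beyond their spread. Then came Col17a1 (83.8 CPM per kilobase), Col4a1 (72.0 CPM per kilobase), Col5a2 (59.5 CPM per kilobase), Col4a2 (56.9 CPM per kilobase) and Col9a2 (55.9 CPM per kilobase). Type I collagen alone took 74.9% to 86.4% of the counts on collagen chains in a library. At the other end, Col6a6 held 2 to 26.3 counts per library, was 0.409, 0.140 and 0.132 CPM in the control and 0.0677, 0.0347 and 0.123 CPM in the mutant libraries, and was not tested. In all, 27 of the 44 genes had at least 1000 counts in every library.

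**Figure D2:**
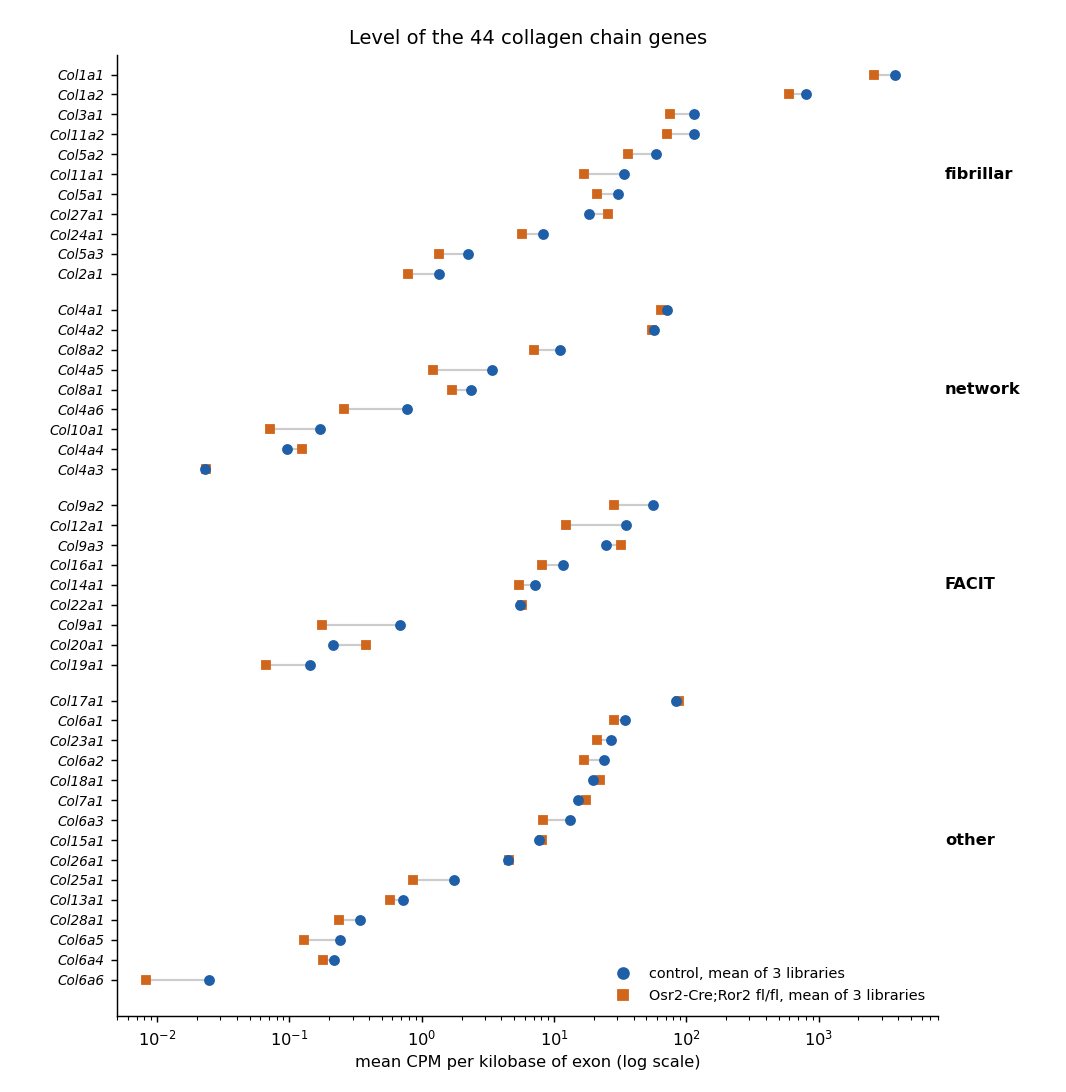
Mean level of the 44 collagen chain genes in control (circles) and mutant (squares) libraries, in CPM per kilobase of exon on a log axis, by class. Type I collagen lies at the right end, with Col1a1 at 3798 CPM per kilobase in controls, and Col4a3, Col6a6, Col4a4 and Col19a1 lie at the left.

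The basement membrane chains are shown first by their promoters, because these genes lie in head-to-head pairs whose members start close to each other on opposite strands. The windows below run from 250 bases before to 50 bases after the RefSeq start of each gene (build GRCm38.p6), 5′ to 3′ on the strand of the gene. Capitals mark the letters GGGCGG (the GC box) and CCAAT (the CCAAT box), each searched on both strands, so that CCGCCC and ATTGG are the same motifs read on the other strand. The 4 windows are Col4a5 (chrX:141475169-141475468, plus strand), Col4a6 (chrX:141474027-141474326, minus strand), Col4a1 (chr8:11312777-11313076, minus strand) and Col4a2 (chr8:11312555-11312854, plus strand).
Col4a5: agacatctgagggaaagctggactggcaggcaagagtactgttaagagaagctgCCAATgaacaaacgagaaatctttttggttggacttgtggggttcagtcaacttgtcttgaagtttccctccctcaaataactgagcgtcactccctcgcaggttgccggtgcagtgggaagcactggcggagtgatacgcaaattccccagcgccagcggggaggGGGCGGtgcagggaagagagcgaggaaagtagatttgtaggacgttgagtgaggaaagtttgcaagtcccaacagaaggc
Col4a6: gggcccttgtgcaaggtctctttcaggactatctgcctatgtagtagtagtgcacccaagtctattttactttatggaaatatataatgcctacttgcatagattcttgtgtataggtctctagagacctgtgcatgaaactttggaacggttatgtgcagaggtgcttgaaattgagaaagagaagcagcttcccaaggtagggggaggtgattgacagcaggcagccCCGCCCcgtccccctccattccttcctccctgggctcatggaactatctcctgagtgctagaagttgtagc
Col4a1: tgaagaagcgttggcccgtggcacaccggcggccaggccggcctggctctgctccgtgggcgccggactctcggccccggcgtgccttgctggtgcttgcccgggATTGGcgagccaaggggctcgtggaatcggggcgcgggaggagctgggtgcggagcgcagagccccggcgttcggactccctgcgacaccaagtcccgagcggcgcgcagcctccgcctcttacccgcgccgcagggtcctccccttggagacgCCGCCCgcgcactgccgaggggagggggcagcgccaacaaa
Col4a2: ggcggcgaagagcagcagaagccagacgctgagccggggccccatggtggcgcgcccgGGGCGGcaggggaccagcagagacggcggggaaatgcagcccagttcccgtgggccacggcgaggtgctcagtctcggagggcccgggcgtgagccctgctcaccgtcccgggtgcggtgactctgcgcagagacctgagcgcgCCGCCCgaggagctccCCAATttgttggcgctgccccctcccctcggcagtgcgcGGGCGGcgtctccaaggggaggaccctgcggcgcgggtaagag

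The starts of Col4a5 and Col4a6 lay 1343 bases apart in RefSeq, and their windows did not overlap. Those of Col4a1 and Col4a2 lay 21 bases apart, with 78 bases shared between the windows. CpG pairs numbered 11 in the window of Col4a5 and 3 in that of Col4a6, and 37 and 33 in those of Col4a1 and Col4a2, where the median of all 32851 RefSeq windows of 300 bases was 7. The letters TATAAA, a common form of the TATA box, occurred in none of these 4 windows. Among all windows, 35.7% held the GC box, 37.4% the CCAAT box and 13.6% TATAAA. Of the 44 chains, 35 had a window in the RefSeq table, some of them more than 1, and of their 38 windows 60.5% held the GC box, 34.2% the CCAAT box and 13.2% TATAAA. A match describes the letters alone.

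Col4a5 and Col4a6 encode the chains of a basement membrane network that is laid down beneath many epithelia, and Col4a5 also joins a network best known from the kidney glomerulus. Col4a5 (ENSMUSG00000031274.16, chrX:141475385-141689234, plus strand, mm10) was 21.5, 24.3 and 23.2 CPM in controls and 9.32, 7.89 and 7.27 CPM in the mutant libraries. Every mutant library was below every control library. The mean fell 2.82-fold, with a log2 fold change of -1.5 (SE 0.13, adjusted p = 0.00031, edgeR). Col4a6 (ENSMUSG00000031273.16, chrX:141165403-141474076, minus strand), its neighbor, was 5.88, 6.48 and 6.07 CPM in the control and 2.27, 2.53 and 1.39 CPM in the mutant libraries. Here too the groups were well apart, and the mean fell 2.98-fold with a log2 fold change of -1.58 (SE 0.23, adjusted p = 0.0042, edgeR). Both chains were lower with an adjusted p under 0.05 in each of the 18 alternatives, in which the log2 fold change ran from -1.60 to -1.36 for Col4a5 and from -1.75 to -1.18 for Col4a6.

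The chains of the basement membrane network found in nearly all tissues did not pass the test. Col4a1 (chr8:11198423-11312826) was 484, 568 and 560 CPM in the control and 564, 358 and 532 CPM in the mutant libraries, a log2 fold change of -0.15 (SE 0.18, adjusted p = 0.57, edgeR). Col4a2 (chr8:11312805-11449287) was 329, 398 and 402 CPM in the control and 432, 287 and 373 CPM in the mutant libraries, a log2 fold change of -0.05 (SE 0.17, adjusted p = 0.86, edgeR). In both genes mutant library 2 was the lowest of the 6 and the other mutant libraries lay among or above the controls. Per length, Col4a5 stood in the control libraries at 3.42 CPM per kilobase beside 72.0 CPM per kilobase for Col4a1. Whether the change of one pair differed from that of the other was not tested. The glomerular chains Col4a3 and Col4a4, again a head-to-head pair with starts 72 bases apart in GENCODE, were at 0.146 to 0.327 CPM and 0.907 to 1.81 CPM over all libraries, with log2 fold changes of 0.02 and 0.39 that missed the threshold.

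Markers of cells that rest on basement membranes were read beside these values. None of the 8 dental epithelium markers, Krt5, Krt14, Krt17, Cdh1, Epcam, Amelx, Ambn and Enam, passed the test. Amelx and Krt14 were higher in every mutant library than in every control, with log2 fold changes of 0.56 and 0.40. Enam was lower in every mutant library, with a log2 fold change of -0.47, and the others overlapped between the groups. Most of the summed level came from Amelx and Ambn. The sum was 171985 to 192060 CPM in the control and 185485 to 255676 CPM in the mutant libraries. None of 6 endothelium markers passed, with sums of 184 to 245 CPM and 172 to 230 CPM, and none of 6 smooth muscle and pericyte markers did, with sums of 276 to 356 CPM and 224 to 293 CPM. None of the markers in these 3 lists was at 0 in any library. All 6 skeletal muscle markers fell, from sums of 10.4 to 35.8 CPM to 2.61 to 3.5 CPM. Some were near the floor, with 3 counts for Ckm, 2.25 for Myh3 and 7.07 for Myh8 in their lowest libraries. Myh3 was called in 9 of the 18 alternatives and the others in 16 to 18. The part of any cell type in the change of Col4a5 and Col4a6 was not tested.

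The hexagonal networks are built by type VIII chains, known from the cornea and from vessel walls, and by Col10a1, the chain made by hypertrophic chondrocytes. Col8a1 (chr16:57624258-57754737) was 18.2, 18.0 and 19.2 CPM in the control and 13.8, 11.7 and 14.0 CPM in the mutant libraries. All mutant libraries were below all controls, with a log2 fold change of -0.49 (SE 0.11, adjusted p = 0.021, edgeR). The call was lost without control library 2 or 3. Its partner Col8a2 was 50.7, 47.4 and 50.8 CPM in the control and 39.3, 36.9 and 18.5 CPM in the mutant libraries, again without overlap, and missed the threshold with a log2 fold change of -0.65 (SE 0.25, adjusted p = 0.089, edgeR). Mutant library 3 stood below the other mutant libraries in Col8a2 but not in Col8a1. Col10a1 was 0.512, 0.635 and 0.437 CPM in the control and 0.203, 0.295 and 0.169 CPM in the mutant libraries, which are 10 to 37 counts per library. It had a log2 fold change of -1.24 (SE 0.35, adjusted p = 0.042, edgeR), and the call remained in 1 of the 6 fits that left out a library, that without mutant library 2.

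**Figure D3:**
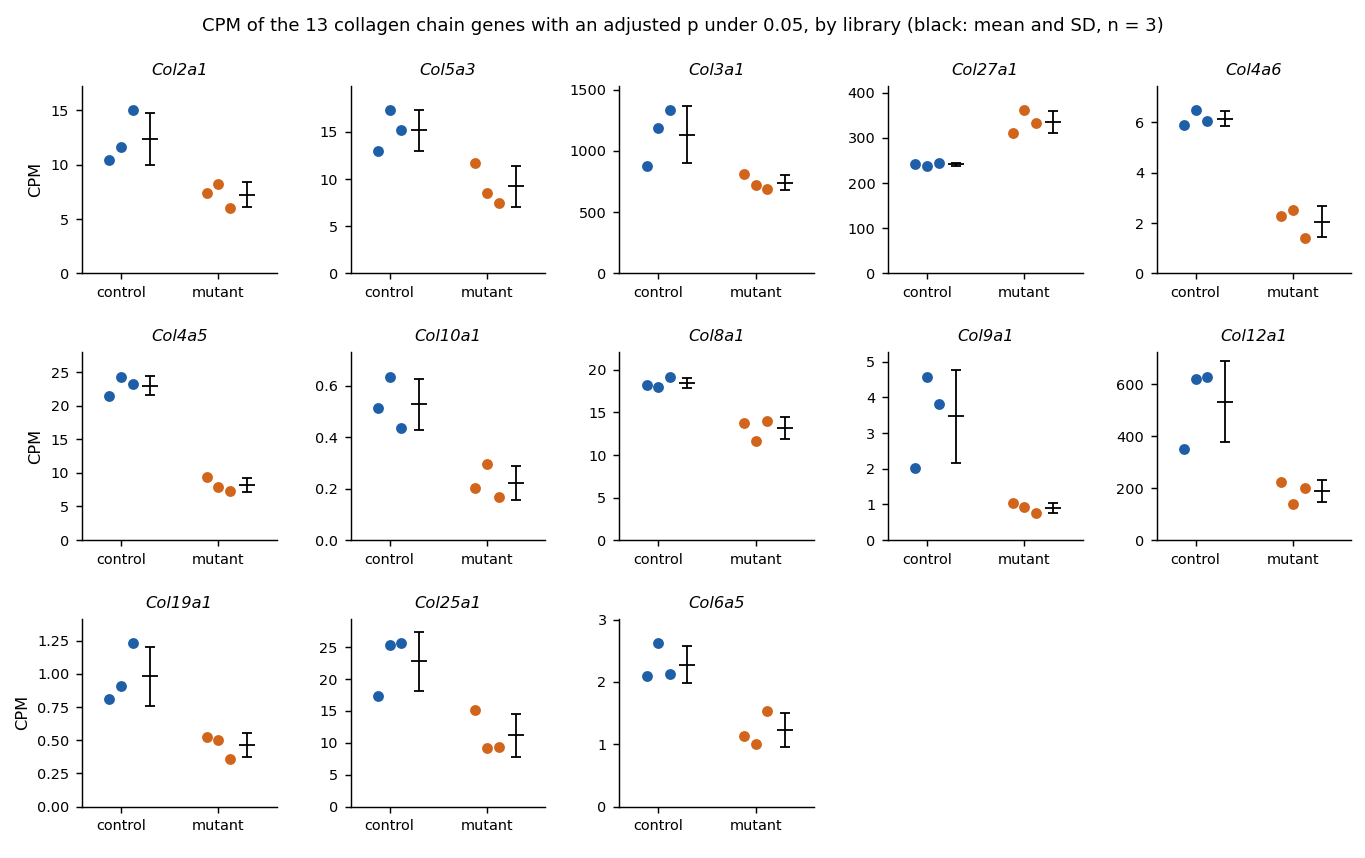
CPM of the 13 collagen chain genes with an adjusted p under 0.05 in each of the 3 control and 3 mutant libraries, with the mean and SD in black and axes that start at 0. In none of the 13 do the groups overlap, and Col27a1 is the only panel with the mutant libraries on top.

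The largest log2 fold change of the 43 chains tested was that of a FACIT chain. Col9a1, one of the 3 chains of type IX collagen, which decorates cartilage fibrils, was 2.03, 4.58 and 3.81 CPM in controls and 1.03, 0.919 and 0.746 CPM in the mutant libraries. Control library 1 was the lowest control and lay above all mutants. The log2 fold change was -1.95 (SE 0.32, adjusted p = 0.0073, edgeR), on 44 to 267 counts per library, and it stayed past the threshold under all 18 alternatives, between -2.23 and -1.12. Col9a1 (chr1:24177610-24252684, plus strand) and Col19a1 (chr1:24261890-24587472, minus strand) lie tail to tail with 9205 bases between them.

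Col12a1 encodes type XII collagen, which is bound to type I fibrils in ligament, tendon and other tissue under load. It was 352, 620 and 629 CPM in the control and 225, 140 and 200 CPM in the mutant libraries. The lowest control, library 1, stood above the highest mutant, library 1. The mean fell 2.83-fold, with a log2 fold change of -1.5 (SE 0.26, adjusted p = 0.0084, edgeR), and it ran from -1.74 to -1.25 over the alternatives, in each of which the gene was called. With 35.1 CPM per kilobase in controls, Col12a1 (chr9:79598991-79718831) was the second FACIT chain by level, after Col9a2, by either measure of length.

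Col9a2, the type IX chain with the highest level, was 153, 187 and 179 CPM in the control and 125, 93.1 and 46.8 CPM in the mutant libraries. All mutants were below all controls, mutant library 3 was the lowest, and the threshold was narrowly missed with a log2 fold change of -0.97 (SE 0.30, adjusted p = 0.054, edgeR). It passed under 9 of the 18 alternatives. Col9a3, the other type IX chain, was 116, 83.9 and 86.3 CPM in the control and 125, 101 and 147 CPM in the mutant libraries, with overlap and a log2 fold change of 0.38 (SE 0.17, adjusted p = 0.14, edgeR). In Col9a3, 4.24% of the stretches of 75 bases also occur in Tcfl5, which overlaps it on the other strand, the largest such share of any chain.

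Col19a1, a rare FACIT chain of basement membrane zones and developing muscle, was 0.807, 0.909 and 1.23 CPM in the control and 0.524, 0.503 and 0.356 CPM in the mutant libraries, on 21 to 76 counts. No mutant reached the lowest control, and the log2 fold change was -1.09 (SE 0.30, adjusted p = 0.041, edgeR). This call remained only without mutant library 2 among the fits that left out a library. The other FACIT chains missed the threshold. Col14a1, Col16a1 and Col28a1 of the other class had mutant libraries below all controls, with log2 fold changes of -0.38, -0.52 and -0.51. Col20a1 was 1 to 1.16 CPM in controls and 1.58 to 2.6 CPM in mutants without overlap, with a log2 fold change of 0.82 (SE 0.26, adjusted p = 0.055, edgeR). Col22a1, known from the junction of muscle and tendon, overlapped with a log2 fold change of 0.04.

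Markers of tissues in which these FACIT chains are best known moved as follows. Of the dental follicle and periodontal ligament list, Postn and Aspn fell, with log2 fold changes of -0.68 and -1.13. Postn was called in 11 of the 18 alternatives and Aspn in 12, and each in 3 of the 6 fits that left out a library. Scx, Tnmd and Pthlh missed the threshold with positive log2 fold changes of 0.32, 0.02 and 0.35. Of these, Pthlh was higher in every mutant library than in every control. The summed level, most of it from Postn, was 136 to 212 CPM in the control and 120 to 129 CPM in the mutant libraries. Of 7 cartilage markers, 5 were tested, and Acan and Hapln1 fell while Sox9, Cnmd and Comp missed the threshold. The log2 fold changes were -1.96 for Acan, on 19 to 151 counts per library, and -1.4 for Hapln1. Both were called in each of the 18 alternatives. Of those that missed the threshold, Cnmd was lower in every mutant library than in every control, with a log2 fold change of -1.22. Sox9 and Comp overlapped between the groups. The cartilage sum was 132 to 170 CPM in the control and 108 to 129 CPM in the mutant libraries, most of it from Sox9. Matn1 and Matn3 were not tested, and Matn1 had at most 3 counts in every library. The part of follicle or cartilage cells in the change of these chains was not tested.

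The spread of type I collagen within each group exceeded the difference between the group means. Col1a1 (ENSMUSG00000001506.10, chr11:94936224-94953042) was 11084, 37132 and 26565 CPM in the control and 28301, 9883 and 13010 CPM in the mutant libraries. The highest control exceeded the lowest 3.35-fold and the highest mutant the lowest 2.86-fold, and the groups overlapped. The log2 fold change was -0.55 (SE 0.50, adjusted p = 0.45, edgeR). Col1a2 (ENSMUSG00000029661.16, chr6:4504814-4541544) was 5611, 13854 and 10596 CPM in the control and 11338, 4422 and 6583 CPM in the mutant libraries. It followed Col1a1 from library to library, with a log2 fold change of -0.43 (SE 0.40, adjusted p = 0.46, edgeR). Neither chain was called under any alternative. Leaving out 1 library moved the log2 fold change of Col1a1 from -1.12 (without mutant library 1) to -0.15 (without control library 2) and that of Col1a2 from -0.86 to -0.13 with the same libraries left out.

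Col1a1 was lowest in mutant library 2, followed by control 1, mutant 3, control 3 and mutant 1, and highest in control 2. This order of the 6 libraries was the same in Col1a2 and in the summed level of the odontoblast markers. That sum was 3372, 9052 and 6031 CPM in the control and 7130, 2904 and 4702 CPM in the mutant libraries. Most of it came from Dspp, which kept the same order, while Dmp1, Phex and Nes each departed from it. None of the 4 odontoblast markers tested was called. Of the 6 osteoblast markers none was called either, with sums of 1308 to 1740 CPM and 1391 to 1747 CPM. Most counts on collagen chains came from type I collagen. The share of all counts on collagen chains was 2.30%, 5.57% and 4.67% in the control and 4.33%, 1.93% and 2.50% in the mutant libraries, and the groups overlapped. Without Col1a1 and Col1a2, the share was 0.578%, 0.762% and 0.791% in the control and 0.591%, 0.460% and 0.517% in the mutant libraries. Control library 1 lay just below mutant library 1, so the groups overlapped here too, with means of 0.711% ± 0.115 and 0.523% ± 0.0654 (SD, n = 3).

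**Figure D4:**
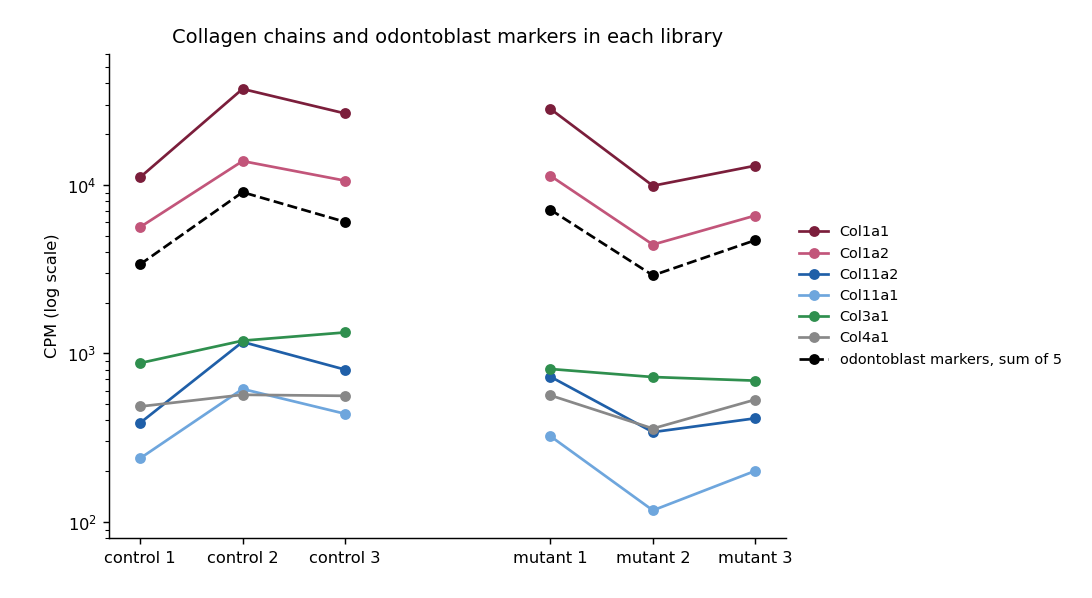
CPM on a log axis of 6 collagen chains and of the summed odontoblast markers (dashed) in each of the 6 libraries. Col1a1, Col1a2 and the marker sum, most of it from Dspp, rise and fall together from library to library, while Col3a1 and Col4a1 vary less. Lines join libraries of a group for legibility only.

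Type XI collagen, best known from the core of cartilage fibrils, was also abundant. Col11a2 was 386, 1170 and 801 CPM in the control and 728, 341 and 412 CPM in the mutant libraries, with a log2 fold change of -0.67 (SE 0.41, adjusted p = 0.26, edgeR). Col11a1 was 238, 615 and 438 CPM in the control and 323, 117 and 201 CPM in the mutant libraries, with a log2 fold change of -1.01 (SE 0.41, adjusted p = 0.11, edgeR). In both, control library 1 was low, mutant library 1 was high and the groups overlapped. The level per length of Col11a2, 114 CPM per kilobase in controls, stood beside 1.34 CPM per kilobase for Col2a1, the chain of the main cartilage fibril.

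Among the less abundant fibrillar chains, 3 fell. Col3a1, the chain of type III collagen, which accompanies type I in soft connective tissue such as pulp, was 876, 1190 and 1332 CPM in the control and 808, 724 and 689 CPM in the mutant libraries. The lowest control was little above the highest mutant, and the log2 fold change was -0.61 (SE 0.17, adjusted p = 0.041, edgeR). The gene was called in 9 of the 18 alternatives and, among those that left out a library, only without control library 1. Col5a3 was 13, 17.3 and 15.2 CPM in the control and 11.7, 8.54 and 7.52 CPM in the mutant libraries. Type V collagen starts and limits the growth of type I fibrils, and this chain fell by 0.71 on the log2 scale (SE 0.19, adjusted p = 0.033, edgeR), a call that remained in 13 of the 18 alternatives and, among those that left out a library, without control library 1 or mutant library 1. Its partners Col5a1 and Col5a2, which overlapped between the groups, had log2 fold changes of -0.52 and -0.71 that missed the threshold.

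Col2a1 (chr15:97975602-98004695) was 10.4, 11.6 and 15 CPM in the control and 7.42, 8.27 and 6.02 CPM in the mutant libraries. The groups did not overlap, and the log2 fold change was -0.77 (SE 0.18, adjusted p = 0.022, edgeR). The call was lost without control library 2, control library 3 or mutant library 1.

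Col27a1 (ENSMUSG00000045672.15, chr4:63214004-63334991), a fibrillar chain with a short interruption of its helix that is expressed in cartilage and other tissues, was the chain that rose. It was 243, 238 and 244 CPM in the control and 311, 361 and 333 CPM in the mutant libraries. The controls lay within 1.02-fold of each other and below every mutant. The mean was 1.39-fold higher, with a log2 fold change of 0.47 (SE 0.11, adjusted p = 0.020, edgeR). The direction held in all 18 alternatives and the call in 12, and an offset for the GC content of the genes ended it with a log2 fold change of 0.25 (adjusted p = 0.14, edgeR). With an offset for GC content and length together the log2 fold change was 0.51 (adjusted p = 0.039, edgeR). Col24a1, the fibrillar chain most like it in structure, overlapped between the groups with a log2 fold change of -0.51 that missed the threshold.

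Of the remaining chains, type VI collagen forms beaded microfilaments in most connective tissue. Col6a5 was 2.09, 2.62 and 2.12 CPM in the control and 1.13, 1.01 and 1.54 CPM in the mutant libraries, a log2 fold change of -0.89 (SE 0.23, adjusted p = 0.033, edgeR). The groups did not overlap, but the call remained in 1 of the 6 fits that left out a library, that without mutant library 3, and 2.89% of its stretches of 75 bases also occur in Col6a6. Col6a1 was 124, 159 and 169 CPM in the control and 153, 120 and 103 CPM in the mutant libraries. These overlapped, with a log2 fold change of -0.27 (SE 0.17, adjusted p = 0.28, edgeR). Col6a2, Col6a3 and Col6a4 overlapped as well, with log2 fold changes of -0.49, -0.67 and -0.28.

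The 4 chains that span the cell membrane split in their values. Col25a1, known from motor neurons and muscle, was 17.4, 25.3 and 25.6 CPM in the control and 15.1, 9.15 and 9.35 CPM in the mutant libraries. The lowest control, library 1, and the highest mutant, library 1, lay close, and the log2 fold change was -1.02 (SE 0.23, adjusted p = 0.021, edgeR). The call was lost without control library 2 or 3. Col17a1, the hemidesmosome collagen of epithelia, whose loss in people disturbs enamel, was 521, 498 and 492 CPM in the control and 580, 460 and 549 CPM in the mutant libraries. It overlapped between the groups with a log2 fold change of 0.07 (SE 0.13, adjusted p = 0.70, edgeR). Col23a1 was lower in every mutant than in every control and missed the threshold with a log2 fold change of -0.37, and Col13a1 overlapped with -0.32. The skeletal muscle markers given above fell between the groups, and so did Col25a1 and Col19a1. Within the controls the muscle sum was 21.9, 35.8 and 10.4 CPM. It was lowest in control library 3, while Col25a1 and Col19a1 were lowest in control library 1. The part of muscle cells in either change was not tested.

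Col7a1, the chain of the anchoring fibrils beneath stratified epithelia, was 161, 144 and 164 CPM in the control and 181, 180 and 180 CPM in the mutant libraries. The groups did not overlap, with a log2 fold change of 0.21 (SE 0.10, adjusted p = 0.16, edgeR), whose sign turned in 2 of the 18 alternatives. Col15a1 and Col18a1, the multiplexins of vessel and epithelial basement membranes, had log2 fold changes of 0.05 and 0.19 and overlapped. Col26a1 was at 0.00. Col28a1, known from Schwann cells, had a log2 fold change of -0.51 that missed the threshold.

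Chains that assemble together were compared as ratios of their levels per length in 10 pairs. With 3 libraries in each group, the smallest p of an exact two-sided permutation test is 0.1, and the smallest p adjusted over the 10 pairs was 0.25. In the controls Col1a1 stood at 4.52 ± 0.695 (SD, n = 3) times Col1a2, and in the mutants at 4.23 ± 0.492. The common form of the protein holds more chains of Col1a1 than of Col1a2, and with the length of the longest transcript in place of all exons the control ratio was 2.15. While the chains themselves varied 3.35-fold and 2.47-fold between controls, their ratio lay between 3.74 and 5.07 in all 6, and it differed by -0.09 on the log2 scale between the groups (exact p = 0.6). The ratio of Col4a5 to Col4a6 was 4.44 ± 0.106 in the controls and 4.93 ± 1.26 in the mutants, with overlap (exact p = 0.7).

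The groups did not overlap for 4 pairs, each with the smallest exact p of 0.1 and an adjusted p of 0.25 (exact permutation test). Among the single genes tested, 22.6% were higher and 22.1% lower in mutants without overlap. Col9a3 to Col9a2 was 0.608, 0.360 and 0.388 in the control and 0.807, 0.871 and 2.52 in the mutant libraries, the widest shift, of 1.46 on the log2 scale. Mutant library 3 stood apart in it, and without that library the shift was 0.93. Col11a1 to Col11a2 was 0.304 ± 0.0258 in controls and 0.230 ± 0.0402 in mutants, a log2 difference of -0.42, or -0.27 without mutant library 2. Col6a3 to Col6a1 was 0.384 ± 0.0298 in controls and 0.292 ± 0.0562 in mutants, a log2 difference of -0.41, or -0.24 without mutant library 2. Col6a1 to Col6a2 was 1.44 ± 0.0414 in controls and 1.68 ± 0.0364 in mutants, a log2 difference of 0.22. For Col4a1 to Col4a2, Col5a1 to Col5a2, Col8a1 to Col8a2 and Col9a1 to Col9a2 the groups overlapped, with log2 differences of -0.11, 0.15, 0.24 and -0.80.

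**Figure D5:**
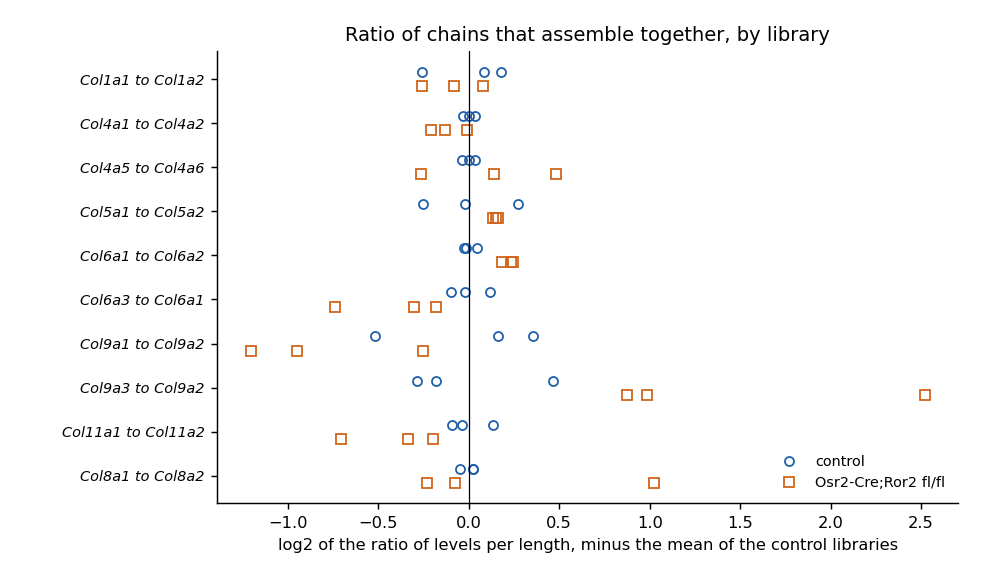
Log2 of the ratio of levels per length for 10 pairs of chains that assemble together, in each control (circle) and mutant (square) library, relative to the control mean of the pair. The groups are apart for Col6a1 to Col6a2, Col6a3 to Col6a1, Col9a3 to Col9a2 and Col11a1 to Col11a2, and mutant library 3 lies far to the right for Col9a3 to Col9a2 and Col8a1 to Col8a2.

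The genes that make, secrete, trim, join and sense collagen were read beside the chains. Of 44 such genes, 3, or 6.82%, fell and none rose (edgeR), beside 9.84% and 10.4% of all genes, so the calls were no more frequent than over all genes. An unadjusted p under 0.05 was reached by 13 of them, or 29.5%, beside 38.3% of all genes, and their median log2 fold change was -0.09. The 3 that fell were called lower in none of the fits without control library 2 or 3. Among 17 genes of chain modification and folding, P4ha1, a subunit of the prolyl hydroxylase that stabilizes the helix, fell from 72.5, 87.5 and 78.9 CPM to 52.1, 37.7 and 61.9 CPM (log2 fold change -0.66, SE 0.17, adjusted p = 0.034, edgeR). Serpinh1, the chaperone specific to collagen, had a log2 fold change of -0.45, and Colgalt1, which adds galactose to the chains, one of -0.28. Both were lower in every mutant library than in every control and missed the threshold.

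None of the 5 genes for the secretion of procollagen passed, and the smallest p-values belonged to Sec23a and Mia3, with log2 fold changes of -0.54 and -0.27, and to Sec24d, with -0.30. These encode parts of the vesicles and exit sites that carry procollagen out of the endoplasmic reticulum. Of 8 genes for the cleavage of propeptides, Tll1, a protease of the tolloid family, fell from 17.9, 24.6 and 23.8 CPM to 15.4, 10.3 and 15.5 CPM (log2 fold change -0.68, SE 0.19, adjusted p = 0.040, edgeR). No mutant reached the lowest control. Tll2 and Adamts3, also propeptide proteases, had log2 fold changes of 0.86 and -0.54 that missed the threshold.

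None of the 5 lysyl oxidases, which cross-link fibrils, passed. Lox was 140, 334 and 254 CPM in the control and 200, 76.8 and 134 CPM in the mutant libraries, with a log2 fold change of -0.82 (SE 0.38, adjusted p = 0.15, edgeR). As in type I collagen, control library 2 was the highest and mutant library 2 the lowest. Loxl2 and Loxl4 had log2 fold changes of 0.37 and -0.58. Of 9 collagen receptors, Ddr2, a receptor tyrosine kinase activated by fibrillar collagen, fell from 148, 213 and 209 CPM to 112, 105 and 109 CPM (log2 fold change -0.81, SE 0.15, adjusted p = 0.011, edgeR). Every mutant library was below every control, and the gene was called under 16 of the 18 alternatives. The integrin subunit Itgb1 and the inhibitory receptor Lair1 had log2 fold changes of -0.36 and 0.88 that missed the threshold.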

How the data were processed

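Per the labels, RNA of 3 Ror2fl/fl and 3 Osr2-Cre;Ror2fl/fl dental pulp samples was analyzed. The authors deposited estimated (expected) counts per gene from single-end reads of 75 cycles on mm10. The paper names TopHat, whereas the submitters' processing notes name STAR 2.6.1d and Partek. Handling of strand and of reads that fit several genes is not given in the sources used here, and 47.8% of the values were exactly whole as deposited, with no tolerance. The authors also deposited a normalized signal, the estimated count plus 1 multiplied by a factor per library, not divided by length. The count table holds 6 columns of other samples that were not used.

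Estimated counts were rounded and tested with R 4.3.3, edgeR 4.0.16 (TMM, filterByExpr, quasi-likelihood test without a block, Benjamini-Hochberg adjustment over all genes tested, threshold 0.05). CPM are TMM-scaled, and fold changes in words are ratios of mean CPM. The standard error is the log2 fold change divided by the square root of the test's F. Lengths, coordinates and GC content came from GENCODE M21 (mm10), whose coordinates were the same as in the deposited table for all 44 chains. Promoters came from RefSeq (GRCm38.p6). Members of the classes and the lists of pathway and marker genes were chosen with earlier results of these data known. Every chain is accounted for; values per library are given for chains called and for the 2 most abundant per length in each class, and for pathway lists the 3 genes with the smallest p are named. Other chains given per library (Col8a2, Col9a3, Col11a1, Col11a2, Col7a1 and Col6a6) were added after their values were seen. Of the genes listed for making and sensing collagen, 44 were in the table. The result of 1 marker list is not reported here.

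Depth was 56134770 to 62628940 counts per library, and replicates differed by more than sampling noise (chi-square per gene of at least 61.7). The biological coefficient of variation was 18.7%. The study counts mice or independent experiments as its n and describes its RNA-seq libraries as pairs of samples, without saying how many animals went into a library, so p-values measure the spread between these libraries, which may be technical. The column headers of control and mutant libraries end in the same codes, the letter S and a number. These are called index numbers here, and no source used here explains them. Whether the groups shared a sequencing run is not given in the sources used here, and a run that coincided with genotype cannot be told apart from it. Alternatives were DESeq2 1.42.0, limma 3.58.1 (voom with quality weights, and limma-trend on the normalized signal with log2 pseudocounts of 1 and 0.1), other scaling and filters, offsets for GC content and length, an index block and leaving out each library. The code was tested on simulated counts.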

Additional observations from a re-analysis of the deposited data

How the results depend on the processing

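All 13 called chains kept their direction in the 234 values from 18 alternatives. Of 774 values over all chains tested, 634 kept direction and call, 56 lost the call, 47 gained one, 37 changed sign with no call on either side, and none reversed a call. Chains lower numbered 20 with DESeq2, 20 with voom, 16 with library size alone, 17 with a GC content offset and 5 with the index block, and chains higher 2, 3, 1, 0 and 0. With block and GC offset together, 0 were higher. Leaving out a library gave 4 to 11 lower and 0 to 2 higher chains, the fewest without control library 2 or 3. The counts of all genes higher and all genes lower were 2003 and 1903 in the report and 2592 and 2672 with DESeq2. With voom they were 3167 and 3174, with library size alone 1644 and 2070, and with the GC offset 1512 and 1340. They were 1012 and 1001 with the block and 742 and 627 with block and GC offset. Without a library they ran from 458 to 2520 and from 414 to 2481. Library size alone made 44.3% of calls higher, against 51.3%. Of the pathway genes, 0 rose and 3 fell in the report. The number that rose was 6 with voom, 1 with the normalized table (pseudocount 1), 2 with the GC and length offset and 0 to 4 without a library. The number that fell was 6 with DESeq2, 9 with voom, 6 with the GC offset, 5 with the GC and length offset, 1 with the block, 1 with block and GC offset and 0 to 6 without a library. Ror2 had a log2 fold change of -0.43 with the block (adjusted p = 0.058, edgeR) and -0.46 to -0.41 without a library. Deviations from the group means had correlations of -0.10, -0.0795 and -0.00375 between libraries of one index number. With 3 libraries in a group, whose deviations depend on each other, these cannot decide whether the libraries were paired. With the longest transcript as the length, control ratios were 2.15 for Col1a1 to Col1a2, 1.39 for Col4a1 to Col4a2, 3.80 for Col4a5 to Col4a6, 0.370 for Col5a1 to Col5a2, 0.906 for Col6a1 to Col6a2, 0.425 for Col6a3 to Col6a1, 0.444 for Col11a1 to Col11a2 and 0.316 for Col8a1 to Col8a2. By that length Col6a2, not Col6a1, was the second of the other chains. On the normalized table with a pseudocount of 1, which shrinks low values, log2 fold changes were -1.12 for Col9a1, -0.52 for Col6a5, -0.39 for Col19a1 and -0.28 for Col10a1, and with the GC and length offset Col8a1 was at -0.31 (adjusted p = 0.059, edgeR). With the GC offset Ror2 was at -0.65. With the block Col27a1 was at 0.47 (adjusted p = 0.071, edgeR). The chains had a median GC content of 55.2%, against 49.6% for all genes tested. Depth limits Col6a6, Col4a3, Col10a1 and Col19a1, with under 100 counts in each library.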
